A study of Mus musculus with 12 samples.

Results

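The genes described are those of hemoglobin together with Alas2, the gene for the erythroid form of aminolevulinate synthase, in embryonic mouse kidneys. They were matched by gene symbol alone, and 7 of 8 listed symbols matched among the 36186 genes with deposited counts. The 7 are Hba-a1 (Entrez gene 15122), Hba-a2 (110257), Hbb-bs (100503605), Hbb-y (15135), Hbb-bh1 (15132), Hba-x (15126) and Alas2 (11656). No symbol matched Hbb-bt, the other adult beta-globin gene, which was not analysed here. The deposited entry of Hbb-bs lists the aliases Hbbt1 and Hbbt2, and whether reads of Hbb-bt were counted under it could not be worked out, so the levels of Hbb-bs and the alpha to beta ratios may include them.

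RNA of whole kidneys was sequenced from 12 mouse embryos at E18.5, 3 of each of 4 genotypes, to ask how Hox genes of paralogous groups act in kidney development. Total expected counts ranged from 28616877 to 47067903 per library. All embryos were of mixed background and each library is named here by its embryo number, with AC before it where the sample description has it. The 9 libraries of the other genotypes were sequenced in run1008 and the 3 Hoxa+/- Hoxc-/- libraries in run1646, so that genotype and run cannot be told apart for these 3.

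Wild type embryos are 30, 37 and 55. Embryos 20, 31 and 33, called Hoxa-/- Hoxc+/-, are homozygous for mutated Hoxa9, Hoxa10 and Hoxa11 and heterozygous for mutated Hoxc9, Hoxc10 and Hoxc11. Embryos AC38, AC110 and AC115, called Hoxa+/- Hoxc-/-, are heterozygous at the 3 Hoxa genes and homozygous at the 3 Hoxc genes. Embryos 24, 27 and 29, called Hoxa-/- Hoxc-/-, are labelled homozygous at all 6 genes, while by the paper's text such embryos were heterozygous or wild type for Hoxa11. The mutations are frameshifts that leave the rest of each transcript in place, and every cell of the embryo carries them.

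Hemoglobin is a tetramer of alpha-like and beta-like globin chains, each holding a haem group, and it fills red blood cells. Early embryonic red cells from the yolk sac use the embryonic chains, and red cells made in the fetal liver use the adult chains. Whole kidneys hold blood in their vessels, and the kidney is known for oxygen sensing and for making erythropoietin, the hormone of red cell formation.

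The adult alpha chain is made from Hba-a1 and Hba-a2, which lie on chromosome 11 of build GRCm38.p6 from 32283672 to 32284486 and from 32296492 to 32297310, with Hba-x, the embryonic alpha-like gene, before them from 32276600 to 32278116. The adult beta gene Hbb-bs lies on chromosome 7 from 103826523 to 103827928, with the embryonic beta-like genes Hbb-bh1 and Hbb-y beside it, from 103841638 to 103843162 and from 103851754 to 103853207. Alas2 lies on chromosome X from 150547417 to 150570622. In the GENCODE M21 transcripts, Hba-a1 and Hba-a2 align without gaps over 538 bases and differ there at 1 base, C577T, counted from 1 at the 5′ end of the Hba-a1 transcript with the Hba-a1 base first. The base lies in exon 3 of both genes, at position 381 of a coding sequence of 429 bases, and leaves the amino acid the same. It is printed in capitals, on the plus strand of GRCm38. Within the aligned bases it alone decides to which of the pair a read can be assigned.
Hba-a1 at chr11:32284329-32284357: catgcctctctggaCaaattccttgcctc
Hba-a2 at chr11:32297146-32297174: catgcctctctggaTaaattccttgcctc

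A window of 75 bases, the read length, was slid along each transcript and looked for in the transcripts of all other genes. Of 480 windows in Hba-a2, 389 (81%) were also in Hba-a1, 75 covered the differing base and 16 reached into bases at the 3′ end that lie outside the alignment. Of 625 windows in Hba-a1, 389 (62.2%) were also in Hba-a2, 75 covered the differing base and 161 reached into bases at the 5′ end outside the alignment. Of 554 windows in Hbb-bs, 356 (64.3%) were also in Hbb-bt. No window of Hbb-y, Hbb-bh1 or Hba-x was found in another gene, and 238 of 1963 windows of Alas2 (12.1%) were found in Apex2. The authors removed reads with more than 1 position, so the split between Hba-a1 and Hba-a2, and the level of Hbb-bs, are uncertain.

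Promoter sequence from RefSeq (GRCm38.p6) was given for 7 of the 8 listed genes, all but Hbb-bh1. The 250 bases before the start were searched on both strands, and the upstream parts of Hba-a1 and Hba-a2 share an unbroken run of 247 bases. The letters ATATAA were in 5 of 7 promoters (Hba-a1, Hba-a2, Hba-x, Hbb-bs and Hbb-bt) and in 9.51% of all 27025 promoters. CCAAT was in 5 of 7, all but Hba-x and Alas2, against 34.5% of all promoters. CACCC was in 7 of 7 against 51.3%, the longer CCACACCC that contains it in Hbb-bs against 3.19%, and AGATAA in Hbb-bs and Alas2 against 10.3%. These matches are descriptions of letters and not of bound sites. The bases from 35 to 6 before the start are shown for the adult globins that were measured, since their levels are compared below, with ATATAA in capitals and each strand as transcribed. The start used is that of RefSeq. The GENCODE transcript of Hba-a1 used for read windows and lengths starts further upstream, so the printed Hba-a1 bases lie inside it.
Hba-a1 at chr11:32283637-32283666, plus strand: ggagggcATATAAgtgctacttgctgcagg
Hba-a2 at chr11:32296457-32296486, plus strand: gggcATATAAgtgctacttgctgcaggtcc
Hbb-bs at chr7:103827934-103827963, minus strand: agagcATATAAggtgaggtaggatcagttg

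Levels of the 6 targeted genes check nothing, because a frameshift leaves reads on the gene. Hoxa10 had 127, 156 and 169 CPM (expected counts of a gene per 1e6 expected counts of its library) in wild type 30, 37 and 55, and 97.5, 101 and 110 CPM in Hoxa-/- Hoxc-/- 24, 27 and 29. Its groups did not overlap, and edgeR gave a log2 fold change of -0.49 (SE 0.11, adjusted p = 0.027). Hoxc10 had 50.9, 60.2 and 68.8 CPM in wild type and 36.8, 28.4 and 35.2 CPM in Hoxa-/- Hoxc-/-, a log2 fold change of -0.78 (SE 0.14, adjusted p = 0.0127). These 2 of 6 targeted genes fell past the threshold in that comparison, and 0 of 6 passed in the other comparisons by edgeR.

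Markers of the labelled tissue were present. The 14 kidney markers summed to between 1981 CPM in Hoxa-/- Hoxc+/- 20 and 5075 CPM in Hoxa-/- Hoxc-/- 27, and 0 of the 14 were at 0 in any library. The kidney cadherin gene Cdh16 was the most abundant on the mean of the 12 libraries, at 779 CPM against 771 CPM for Lrp2. Cdh16 had 312 CPM in Hoxa-/- Hoxc+/- 20 and between 669 and 1007 CPM in the other 11 libraries. Lrp2 had 162 CPM in Hoxa-/- Hoxc+/- 20. It lay above Cdh16 in several other libraries, such as wild type 30 with 1077 against 906 CPM. Library Hoxa-/- Hoxc+/- 20 also had the smallest total count and stands apart from the other 2 of its genotype. Library Hoxa+/- Hoxc-/- AC115 stands apart by its globin counts, 0.590% of all its counts, and fold changes of Hba-a1, Hba-a2, Hbb-bs and Alas2 that turn in direction or call without either are given both ways. Group means and medians of gene lists include both libraries. Xist, transcribed from the inactive X chromosome, was between 59.2 and 349 CPM in Hoxa-/- Hoxc+/- 31 and 33, Hoxa+/- Hoxc-/- AC110 and Hoxa-/- Hoxc-/- 27 and 29, and at most 0.142 CPM in the other 7, which include all wild type libraries. Sex was therefore unequal between the genotypes.

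Adult globins made up nearly all globin counts. The 6 globin genes took between 0.0518% of all counts in Hoxa+/- Hoxc-/- AC38 and 0.590% in Hoxa+/- Hoxc-/- AC115. In bulk tissue, more red cells and more globin RNA per cell cannot be told apart. Levels between genes can be compared only per length of transcript, and on that scale the mean of the 12 libraries was 1136 CPM per kb for Hbb-bs, 987 for Hba-a1, 228 for Hba-a2 and 25.0 for Alas2. The embryonic genes had 0.493 (Hbb-y), 0.282 (Hba-x) and 0.0459 CPM per kb (Hbb-bh1). The order of Hbb-bs and Hba-a1 is within their spread over libraries, with an SD of 1063 and 831 CPM per kb. Without embryos 20 and AC115, a choice made after the values were seen, the means of the other 10 libraries were 833 for Hbb-bs, 739 for Hba-a1, 49.3 for Hba-a2 and 20.5 CPM per kb for Alas2. In wild type the order of Hba-a2 and Alas2 was the other way, at 7.71 ± 6.39 and 17.9 ± 6.65 CPM per kb (SD, n = 3). Their lowest values were also in that order in each mutant genotype. These were 2.83 and 12.5 in Hoxa-/- Hoxc+/-, 6.24 and 9.31 in Hoxa+/- Hoxc-/-, and 6.25 and 23.5 CPM per kb in Hoxa-/- Hoxc-/-. The scale uses whole transcripts, while 91 of 480 windows of Hba-a2 and 1725 of 1963 of Alas2 were in no other gene. The order of these 2 genes may therefore differ over the bases that could be counted, and this scale does not settle it in any genotype.

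Hba-a1, an adult alpha-globin gene, had 234, 645 and 679 CPM in wild type 30, 37 and 55. The level in Hoxa-/- Hoxc+/- 20, 31 and 33 was 727, 235 and 353 CPM. In Hoxa+/- Hoxc-/- AC38, AC110 and AC115 it was 239, 969 and 2383 CPM, and in Hoxa-/- Hoxc-/- 24, 27 and 29 it was 569, 687 and 555 CPM. All 4 genotypes overlapped, and 1 library, Hoxa+/- Hoxc-/- AC115, lay far above the rest. The means, from high to low, were 1197 ± 1090 CPM (SD, n = 3) in Hoxa+/- Hoxc-/-, 604 ± 72.3 in Hoxa-/- Hoxc-/-, 519 ± 248 in wild type and 439 ± 257 in Hoxa-/- Hoxc+/-, and no neighbours in this order differ beyond their spread.

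Hbb-bs, the adult beta-globin gene, had 290, 632 and 675 CPM in wild type 30, 37 and 55. In Hoxa-/- Hoxc+/- 20, 31 and 33 it had 577, 297 and 363 CPM. The Hoxa+/- Hoxc-/- libraries AC38, AC110 and AC115 had 275, 754 and 2755 CPM, and Hoxa-/- Hoxc-/- 24, 27 and 29 had 690, 741 and 517 CPM. The order of the libraries was close to that of Hba-a1, with wild type 30, Hoxa-/- Hoxc+/- 31 and Hoxa+/- Hoxc-/- AC38 low for both genes. Group means were 1261 ± 1316 CPM (SD, n = 3) in Hoxa+/- Hoxc-/-, 649 ± 118 in Hoxa-/- Hoxc-/-, 532 ± 211 in wild type and 412 ± 147 in Hoxa-/- Hoxc+/-, again with no neighbours apart.

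Hba-a2, the other adult alpha-globin gene, varied far more. It had 0.368, 5.18 and 7.27 CPM in wild type 30, 37 and 55. Hoxa-/- Hoxc+/- 20, 31 and 33 had 483, 1.57 and 6.52 CPM. Embryos 31 and 33 lay within the wild type range and embryo 20 far above it. In Hoxa+/- Hoxc-/- AC38, AC110 and AC115 it had 3.46, 84.1 and 760 CPM, and in Hoxa-/- Hoxc-/- 24, 27 and 29 it had 152, 3.46 and 9.49 CPM. Of these 6, AC110, AC115 and 24 lay far above wild type, AC38 and 27 within its range and 29 just above it. The highest library exceeded the lowest 2064-fold over the 12 libraries, against 10.2-fold for Hba-a1 and 10.0-fold for Hbb-bs. Group means, from 283 ± 415 CPM (SD, n = 3) in Hoxa+/- Hoxc-/- through 164 ± 277 in Hoxa-/- Hoxc+/- and 54.95 ± 84.0 in Hoxa-/- Hoxc-/- to 4.27 ± 3.54 in wild type, lie within the spread of their libraries.

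**Figure D1:**
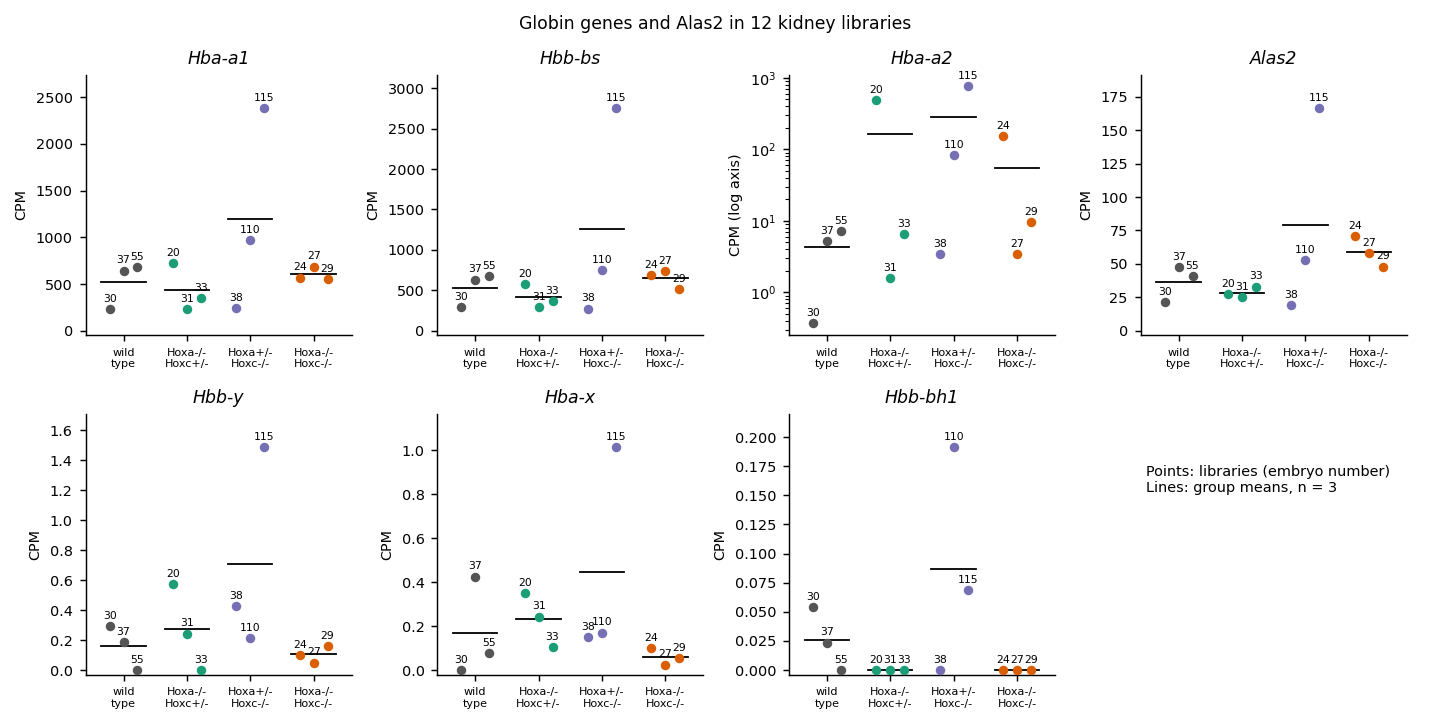
CPM of each measured gene in each library, with points for libraries named by embryo number, AC left off, and lines for group means (n = 3). The axis for Hba-a2 is logarithmic and the others start at 0. Library AC115 of Hoxa+/- Hoxc-/- is highest for 6 of the 7 genes, with 2755 CPM for Hbb-bs.

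Alas2, whose product starts haem synthesis in red cell precursors, had 21.4, 47.4 and 40.9 CPM in wild type 30, 37 and 55. It had 27.4, 25.4 and 33.1 CPM in Hoxa-/- Hoxc+/- 20, 31 and 33. All 3 of these lie within the wild type range. The Hoxa+/- Hoxc-/- libraries AC38, AC110 and AC115 had 19.0, 52.8 and 167 CPM, and Hoxa-/- Hoxc-/- 24, 27 and 29 had 71.0, 58.3 and 47.9 CPM. The means were 79.5 ± 77.4 CPM (SD, n = 3) in Hoxa+/- Hoxc-/-, 59.1 ± 11.6 in Hoxa-/- Hoxc-/-, 36.6 ± 13.5 in wild type and 28.61 ± 3.98 in Hoxa-/- Hoxc+/-. The libraries of Hoxa-/- Hoxc-/- lay above all of wild type, at the closest with 47.9 CPM in embryo 29 against 47.4 CPM in wild type 37, and above all of Hoxa-/- Hoxc+/-.

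The embryonic genes were near the limit of counting, where 3 counts correspond to between 0.0637 and 0.105 CPM per library. Hbb-y, the gene of the embryonic epsilon-like chain, ranged from 0 to 1.49 CPM and was at 0 in wild type 55 and Hoxa-/- Hoxc+/- 33. Hba-x, the zeta-globin gene, ranged from 0 to 1.01 CPM and was at 0 in wild type 30. Library Hoxa+/- Hoxc-/- AC115 had the highest values of both, as it did for the adult genes. Hbb-bh1, an embryonic beta-like gene, had 9 counts in Hoxa+/- Hoxc-/- AC110, 3.19 in AC115, 2 in wild type 30, 1 in wild type 37 and 0 in the other 8 libraries, which allows up to 3 counts in each.

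Embryonic genes were between 0.00522% and 0.112% of the globin counts of a library. The share was 0.112% (95% Wilson interval 0.0710 to 0.173%) in Hoxa+/- Hoxc-/- AC38 and 0.0910% (0.0589 to 0.141%) in Hoxa-/- Hoxc+/- 31. In the library with most globin, Hoxa+/- Hoxc-/- AC115, it was 0.0435% (0.0363 to 0.0520%). The group means were 0.0624 ± 0.0432% (SD, n = 3) in Hoxa+/- Hoxc-/-, 0.0524 ± 0.0383% in Hoxa-/- Hoxc+/-, 0.0407 ± 0.0315% in wild type and 0.0132 ± 0.00747% in Hoxa-/- Hoxc-/-. The Hoxa-/- Hoxc-/- libraries, at 0.0144, 0.00522 and 0.02002%, overlap wild type 55 at 0.00561%. Intervals and limits cover counting error only, since reads are not independent molecules.

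Hba-a1 and Hbb-bs kept close to each other, with a ratio of counts between 0.791 and 1.29 in the 12 libraries. In Hoxa-/- Hoxc+/- 20 the ratio was 1.26 for Hba-a1 alone and 2.10 with Hba-a2 added, and the ratio with Hba-a2 lay between 0.797 and 1.40 in the other 11. Hba-a2 was 39.9% of the counts of the pair Hba-a1 and Hba-a2 in Hoxa-/- Hoxc+/- 20, 24.2% in Hoxa+/- Hoxc-/- AC115, 21.1% in Hoxa-/- Hoxc-/- 24 and 7.99% in Hoxa+/- Hoxc-/- AC110. In the other 8 libraries it was between 0.157% and 1.81%, with wild type at 0.157, 0.797 and 1.06%. The 4 libraries with a high share come from all 3 mutant genotypes and both sequencing runs. Of these 4, AC110 has Xist and the other 3 have the Y-linked gene Ddx3y, as do the wild type libraries.

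**Figure D2:**
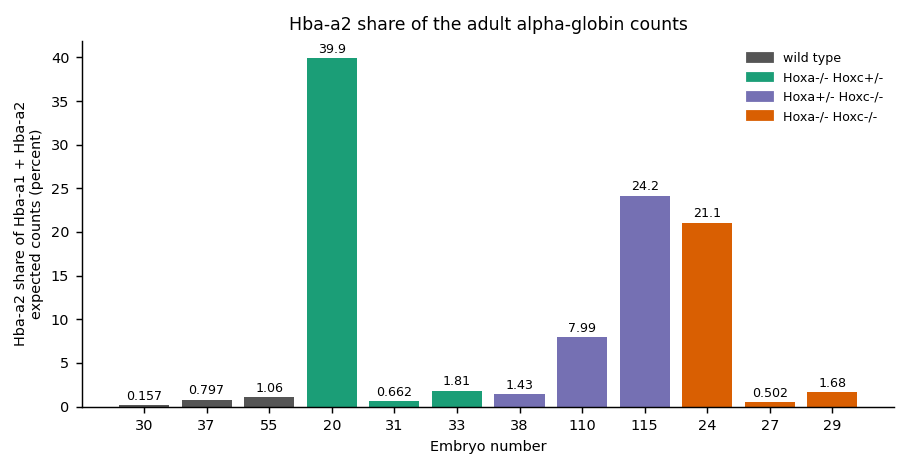
Share of Hba-a2 in the summed expected counts of Hba-a1 and Hba-a2, in percent, as 1 bar per library in the color of its genotype, AC left off the embryo numbers. The share is 39.9% in embryo 20 and at most 1.81% in 8 libraries, the 3 of wild type among them.

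Across the 12 libraries, log2 CPM of Hbb-bs followed Hba-a1 with Pearson r = 0.972 (two-sided permutation p = 1.0e-05, the smallest that 100000 resamples can give) and Spearman rho = 0.909 (permutation p = 6.0e-05). Without the 2 libraries farthest from the median of Hbb-bs, AC38 and AC115, r was 0.957, and within run1008 it was 0.960 (exact permutation p = 9.0e-04, n = 9). Hbb-bs and Alas2 had r = 0.938 and rho = 0.895 (permutation p = 9.0e-05 and 2.0e-04), with r = 0.827 without the same 2 libraries and 0.819 within run1008 (exact permutation p = 0.00766, n = 9). Genes on chromosomes 7, 11 and X thus varied together from embryo to embryo, over genotypes pooled. Hba-a1 and Alas2 had r = 0.878 and rho = 0.713 (permutation p = 4.4e-04 and 0.012), with r = 0.714 without 30 and AC115. Hba-a1 and Hba-a2 had r = 0.800 and rho = 0.769 (permutation p = 0.00115 and 0.00497), with r = 0.620 without 30 and AC115. These 4 pairs were chosen after the values were seen, and their adjusted p-values over 4 were 4.0e-05, 1.8e-04, 5.9e-04 and 0.00115 for r, and 2.4e-04, 4.0e-04, 0.012 and 0.00663 for rho. Within run1008 the last pairs had r = 0.687 and 0.681, each with an exact permutation p adjusted over 4 of 0.0468 (n = 9), and run1646 holds too few libraries for a value.

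**Figure D3:**
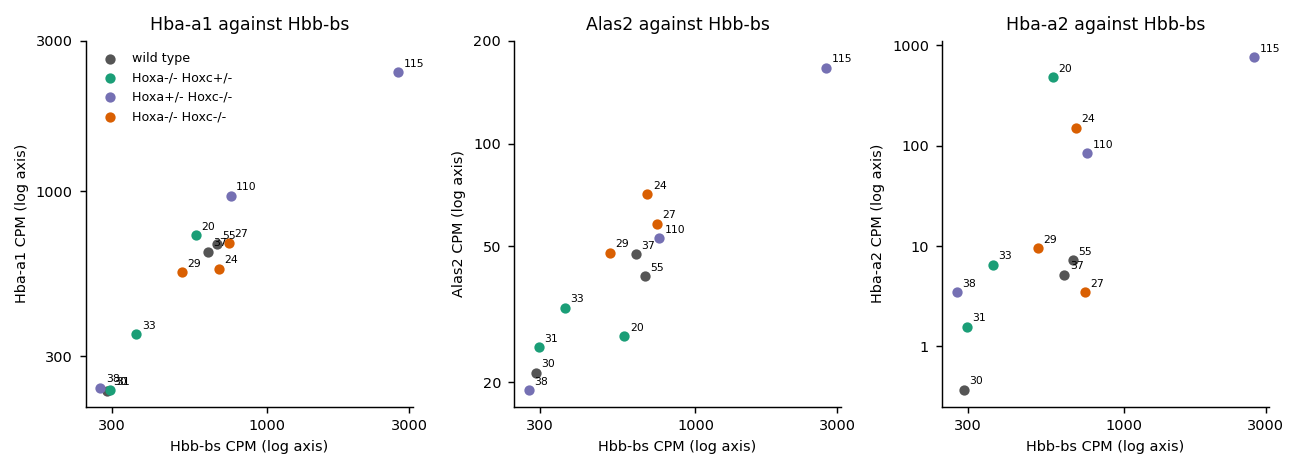
CPM of Hba-a1, Alas2 and Hba-a2 against CPM of Hbb-bs on logarithmic axes, with 1 point per library named by embryo number, AC left off, and colored by genotype. Hba-a1 and Alas2 follow Hbb-bs (r = 0.972 and 0.938 on log2 CPM), while libraries 20, 24, AC110 and AC115 lie above the others for Hba-a2.

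Among 15823 genes with at least 10 counts on average, the 10 most like Alas2 over the 12 libraries included Rhd (r = 0.880), Pcdhgb6 (0.876), Mylip (0.861), Lama4 (0.857), Mkrn1 (0.852), Phf13 (0.850), Bpgm (0.835), Prox2 (0.832) and Isg20 (0.823). The rho of these genes lay between 0.643 and 0.923, and their r between 0.586 and 0.880 without embryos AC38 and AC115. Mkrn1, Bpgm and Isg20 are in the list of late erythroid genes and Rhd, a gene of the Rh blood group proteins, in that of red cell membrane genes. For the mean log2 CPM of the 3 adult globins, the most like were Pced1b (r = 0.893), Cntn6 (0.875), Fam220a (0.873), Itga2b (0.873), 6030419C18Rik (0.872), Porcn (0.869), Pgm1 (0.864), Pkdcc (0.857), Ube2l6 (0.853) and Hoxc6 (0.846). The least like were LOC101055929 (r = -0.915), Zkscan1 (-0.900), Gm16023 (-0.895), Cpne3 (-0.887) and Zfp518a (-0.880). For these 5, rho lay between -0.909 and -0.832, and r between -0.900 and -0.719 without embryos 20 and AC115. For the 10 genes most like the mean, rho lay between 0.692 and 0.944, and r between 0.652 and 0.946 without the same 2 libraries. That mean carries the spread of Hba-a2, and 1 of its 10 genes, the platelet gene Itga2b, is in a list of blood cell genes. For Hbb-bs alone, a measure added after the values were seen, the 10 most like included Isg20 of the late erythroid list (r = 0.877, rho = 0.867, and r = 0.880 without AC38 and AC115). All were picked as extremes of 15823, so no p is given.

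Double mutants were compared with wild type to ask what loss of both Hoxa and Hoxc function changes, and both groups are from run1008. At a threshold of 0.05 on the adjusted p from edgeR, 0 of the 4 members tested passed (13.7% of all 15839 genes tested did, 2171 genes), and 5131 genes had an unadjusted p under 0.05. Groups did not overlap for 1 of the 4, Alas2, against 39.7% of all genes tested. The other 3 members, Hbb-y, Hbb-bh1 and Hba-x, did not pass the filter on low counts. The log2 fold change was 0.76 for Alas2 (SE 0.28, adjusted p = 0.105), higher in 3 of 3 mutant libraries than in any wild type library, and DESeq2, which called 3380 genes in all, gave Alas2 an adjusted p of 0.0207. Over the 9 settings other than leaving out a library, the adjusted p of Alas2 lay between 0.0207 and 0.491. With 1 library left out, its log2 fold change lay between 0.49 without wild type 30 and 0.99 without wild type 37, with an adjusted p between 0.0765 and 0.257. Hba-a1 had 0.28 (SE 0.34, adjusted p = 0.597). Hbb-bs had 0.35 (SE 0.29, adjusted p = 0.435), between 0.06 without wild type 30 and 0.55 without wild type 55. Hba-a2 had 3.75 (SE 1.43, adjusted p = 0.118), which became 0.66 without Hoxa-/- Hoxc-/- 24. Without wild type 30, Hba-a1 had -0.06. The count of 2171 genes became 3386 without wild type 30, 535 without wild type 37, 633 without wild type 55, 793 without Hoxa-/- Hoxc-/- 24 and 1101 without Hoxa-/- Hoxc-/- 27.

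The counts of list genes past the threshold in this comparison stand beside 13.7% of all genes tested. Of 8 other haem synthesis enzymes, 1 rose in the double mutants, Fech, the ferrochelatase that inserts iron into haem, at 68.6 ± 4.10 CPM (SD, n = 3) against 56.4 ± 0.994 in wild type (log2 fold change 0.35, SE 0.07, adjusted p = 0.0239). The median of the 8 was 0.13 beside -0.01 for all genes tested. Of 10 tested genes of iron uptake and mitochondrial import, 3 rose and 1 fell, with a median of 0.27. The iron transporter gene Slc11a2 had 0.94 (SE 0.18, adjusted p = 0.0187), the ferrireductase gene Steap3 1.14 (SE 0.13, adjusted p = 0.00385), and the iron exporter gene Slc40a1 0.51 (SE 0.13, adjusted p = 0.0411). The fall was in Slc25a37, the gene of mitoferrin, which carries iron into mitochondria, at -0.95 (SE 0.10, adjusted p = 0.0029). Cygb, of the wider globin family, rose by 0.46 on the log2 scale (SE 0.10, adjusted p = 0.0237).

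Of 16 tested genes of the red cell membrane and skeleton, 0 passed in the same comparison by edgeR, with 11 positive and a median of 0.17, and of 12 tested late erythroid genes 0 passed, with 9 positive and a median of 0.22. Of 12 tested erythroid transcription factors and receptor genes, 1 rose and 3 fell, with a median of -0.16. Bcl11a, a repressor of embryonic globin genes, had 1.22 (SE 0.28, adjusted p = 0.0294), while Myb had -0.95 (SE 0.20, adjusted p = 0.023), the erythropoietin receptor gene Epor -0.74 (SE 0.18, adjusted p = 0.0358) and Ldb1 -0.30 (SE 0.08, adjusted p = 0.0445). Of 9 tested genes of erythropoietin and oxygen sensing 1 fell, Gata3, by 0.65 on the log2 scale (SE 0.11, adjusted p = 0.0113), with a median of -0.04. Abundant genes of these lists were Cd24a (559 CPM on average), Prdx2 (475 CPM) and Aqp1 (252 CPM), a water channel gene that kidney tubules also express. Rhag, of the Rh complex of red cells, was at 0 in 5 libraries, namely wild type 30, Hoxa-/- Hoxc+/- 20, 31 and 33 and Hoxa+/- Hoxc-/- AC38. Car1, a red cell carbonic anhydrase gene, was at 0 in the same 5 and in Hoxa-/- Hoxc-/- 29.

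Markers of other cell types were measured in the same libraries, and their part in the values of Alas2 and the globins was not tested. Of 8 macrophage markers, 7 were higher past the threshold, with a median of 1.08. They summed to 97.2, 91.7 and 90.2 CPM in wild type 30, 37 and 55, and to 214, 205 and 162 CPM in Hoxa-/- Hoxc-/- 24, 27 and 29, with 0 of 8 at 0 in any library. Csf1r, the receptor of a macrophage growth factor, was the most abundant on the mean of the 12 libraries, at 34.8 CPM against 33.3 CPM for Mrc1. Csf1r had 53.4 ± 7.33 CPM in the double mutants and 26.4 ± 2.68 CPM in wild type (SD, n = 3). Its log2 fold change was 1.08 (SE 0.13, adjusted p = 0.00404 by edgeR). In the double mutants Mrc1 had slightly more, at 54.7 ± 3.97 CPM. Cd163, the macrophage receptor that takes up hemoglobin, rose by 1.75 on the log2 scale (SE 0.27, adjusted p = 0.00847) and was the 1 of 9 tested genes of hemoglobin and haem clearance past the threshold, in a list with 9 of 9 positive and a median of 0.44. Of 5 tested platelet genes 1 rose, Pf4, with 0.91 (SE 0.18, adjusted p = 0.0212), and of 4 tested neutrophil genes 0 passed by edgeR, with a median of -0.28. The platelet list summed to between 11.5 and 17.8 CPM in wild type and between 17.7 and 24.7 CPM in double mutants. It was highest, at 29.2 CPM, in Hoxa-/- Hoxc+/- 20, and Pf4 was its most abundant gene on the mean of the 12 libraries. The neutrophil list summed to at most 8.53 CPM in any of the 12 libraries, with S100a9 the most abundant on their mean.

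Liver markers, measured because the fetal liver makes red cells, were low but varied. Of 8 tested, 3 rose in the double mutants, with a median of 1.51, namely Alb with 3.40 (SE 0.58, adjusted p = 0.0119), Ahsg with 3.04 (SE 0.57, adjusted p = 0.0172) and Ttr with 1.56 (SE 0.27, adjusted p = 0.0125). Alb, the albumin gene, had 1.10, 0.683 and 0.891 CPM in wild type 30, 37 and 55 and 8.42, 15.6 and 2.97 CPM in Hoxa-/- Hoxc-/- 24, 27 and 29. It had 25.6 CPM in Hoxa+/- Hoxc-/- AC115 and 19.4 CPM in Hoxa-/- Hoxc+/- 20, the highest 2 of the 12 libraries for Alb and also for Hba-a2. The next, Hoxa-/- Hoxc+/- 31, had 16.55 CPM of Alb and 1.57 CPM of Hba-a2. The list summed to between 53.4 CPM in wild type 55 and 148 CPM in Hoxa-/- Hoxc-/- 27, with Afp the most abundant gene at 38.7 to 140 CPM and 0 of 8 at 0. In the 2 libraries with most Hba-a2, Afp was low while Alb was high, with its lowest level, 38.7 CPM, in embryo 20 and 47.0 CPM in AC115. Hoxa-/- Hoxc-/- 24, next in Hba-a2 at 152 CPM, had 118 CPM of Afp and 8.42 CPM of Alb. Wild type 55 had 43.8 CPM of Afp and 7.27 CPM of Hba-a2. Endothelial markers summed to between 785 CPM in Hoxa-/- Hoxc+/- 20 and 1071 CPM in Hoxa-/- Hoxc-/- 27, and 0 of 7 passed by edgeR in this comparison. Of the 14 kidney markers 2 rose and 1 fell by edgeR, with a median of 0.18. The part of these cells in the globin values was not tested.

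**Figure D4:**
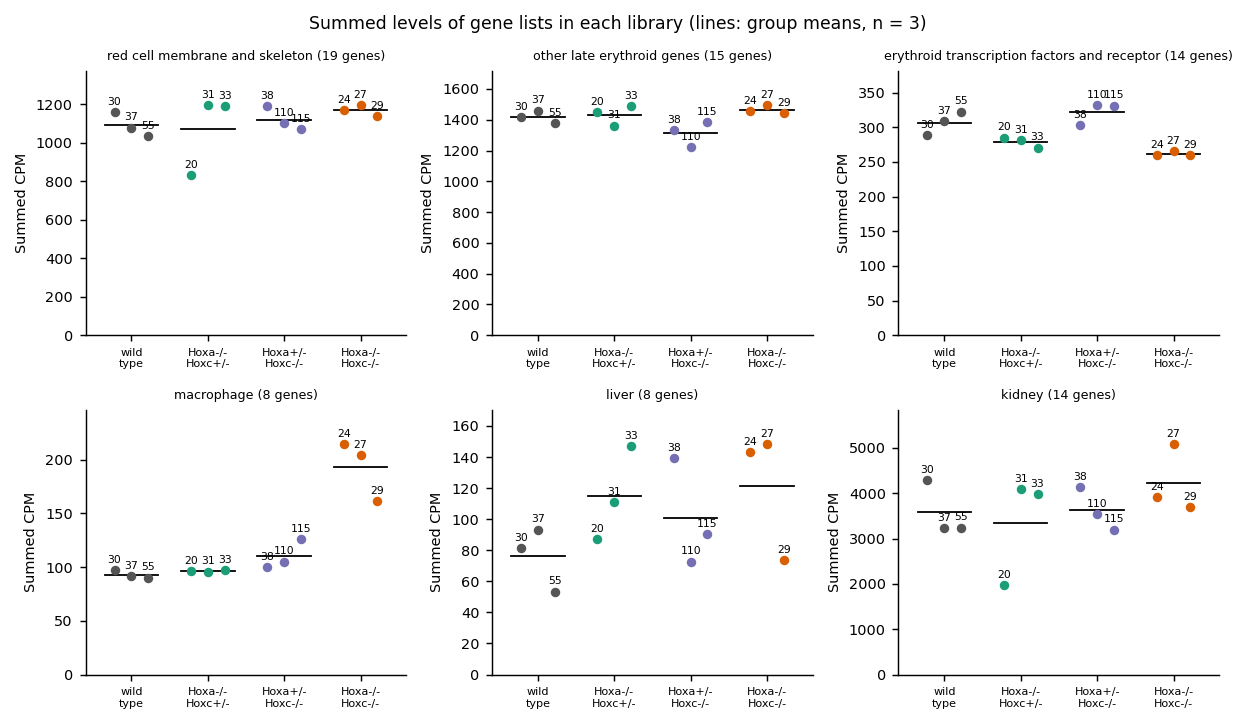
Summed CPM of 6 gene lists in each library, with points for libraries named by embryo number, AC left off, lines for group means (n = 3) and axes from 0. The macrophage list is at 162 to 214 CPM in Hoxa-/- Hoxc-/- and at most 126 CPM elsewhere, and the kidney list is lowest, at 1981 CPM, in embryo 20.

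Hoxa-/- Hoxc+/- kidneys were compared with wild type to ask what the loss of the Hoxa genes alone changes with 1 Hoxc copy mutated. By edgeR 0 of 4 members tested passed, as did 0% of all 15789 genes tested, with 360 genes at an unadjusted p under 0.05 and 22 called by DESeq2. Groups did not overlap for 0 of the 4, against 9.96% of all genes tested. The log2 fold change was -0.12 for Hba-a1 (SE 0.57), -0.26 for Hbb-bs (SE 0.41) and -0.27 for Alas2 (SE 0.29), each with an adjusted p of 1. With 1 library left out, Hbb-bs lay between -0.66 without Hoxa-/- Hoxc+/- 20 and -0.05 without Hoxa-/- Hoxc+/- 31, and Alas2 between -0.54 without wild type 30 and -0.04 without wild type 37. The fold change of Hba-a2 was 5.43 (SE 2.30, adjusted p = 1) and rested on 1 library, since it was -0.05 without Hoxa-/- Hoxc+/- 20. The value of Hba-a1 turned to 0.06, 0.11, 0.20 and 0.03 without wild type 37, wild type 55, Hoxa-/- Hoxc+/- 31 and Hoxa-/- Hoxc+/- 33. Without Hoxa-/- Hoxc+/- 20 edgeR called 8 genes in place of 0. The liver list had a median of 1.87 with 8 of 8 positive, and the macrophage list a median of 0.09, beside 0.03 for all genes tested.

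Hoxa+/- Hoxc-/- kidneys, of the other run, were compared with wild type to ask the same of the Hoxc genes. By edgeR 0 of 5 members tested passed, against 2.36% of all 15902 genes tested (376 genes), with 3349 at an unadjusted p under 0.05 and 1318 called by DESeq2. Groups did not overlap for 0 of the 5, against 26.3% of all genes tested. The log2 fold change was 1.20 for Hba-a1 (SE 0.75, adjusted p = 0.4), 1.24 for Hbb-bs (SE 0.75, adjusted p = 0.387) and 1.11 for Alas2 (SE 0.69, adjusted p = 0.401). These values rested on embryo AC115, without which they were 0.21, -0.06 and -0.03. Hbb-y passed the count filter only in this comparison, with 0.428, 0.2125 and 1.49 CPM in AC38, AC110 and AC115 and 0.296, 0.189 and 0 CPM in wild type 30, 37 and 55, and its fold change is not given because passing the filter depended on the group where it was high. Hba-a2 had 6.03 (SE 1.80, adjusted p = 0.126), was called by DESeq2 (adjusted p = 0.0121) and passed in edgeR without Hoxa+/- Hoxc-/- AC38 (6.59, adjusted p = 0.047), and over all left-out libraries lay between 3.35 and 6.62, with an adjusted p between 0.047 and 0.366. The 376 genes became 60 without wild type 37, 70 without wild type 55, 63 without Hoxa+/- Hoxc-/- AC110 and 99 without Hoxa+/- Hoxc-/- AC115.

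In the lists, Hif1a, an oxygen-sensing transcription factor gene, fell in Hoxa+/- Hoxc-/- by 0.40 on the log2 scale (SE 0.07, adjusted p = 0.0408 by edgeR), at 167 ± 7.78 CPM against 218 ± 7.49 in wild type (SD, n = 3). It was the 1 gene of the lists past the threshold in this comparison. Genes of the red cell membrane and skeleton had a median of 0.30 with 13 of 16 positive, and late erythroid genes a median of 0.09 with 6 of 12 positive, beside 0.01 for all genes tested. The liver list had a median of 0.86 with 7 of 8 positive, and groups did not overlap for Alb (log2 fold change 3.71, SE 0.85, adjusted p = 0.0733), Ahsg (3.37, SE 0.85, adjusted p = 0.09), Apoa1 (2.44, SE 0.71, adjusted p = 0.119) and Ttr (0.46, SE 0.20, adjusted p = 0.244), genes named here after their values were seen. The part of liver genes in the globin values was not tested.

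Double mutants were compared with Hoxa-/- Hoxc+/- to ask what the loss of the second Hoxc copies adds. By the paper's text the sequenced double mutants were heterozygous or wild type for Hoxa11, and the groups then also differ in Hoxa11. The parts of Hoxc and Hoxa11 cannot be told apart. By edgeR 0 of 4 members tested passed, as did 0% of all 15764 genes tested, with 1787 at an unadjusted p under 0.05 and 554 called by DESeq2. Groups did not overlap for 1 of the 4, Alas2, against 22.4% of all genes tested. Alas2 had a log2 fold change of 1.05 (SE 0.18, unadjusted p = 0.000837, adjusted p = 0.158 by edgeR), higher in 3 of 3 libraries, and an adjusted p of 0.000298 by DESeq2. On data simulated for this comparison DESeq2 made more false calls than the limit first set for the tools, so its calls here are less certain. Hba-a1 had 0.42 (SE 0.43, adjusted p = 0.709), Hbb-bs 0.63 (SE 0.31, adjusted p = 0.509) and Hba-a2 -1.67 (SE 2.12, adjusted p = 0.761). By limma on the deposited log2 values Hba-a2 had -0.0007, and Hba-a1 summed with Hba-a2 had 0.07. Without Hoxa-/- Hoxc+/- 20, the library that stands apart, edgeR called 687 genes, and Hba-a1 at 1.09 (adjusted p = 0.0312), Hbb-bs at 1.03 (0.0308) and Alas2 at 1.07 (0.0336) passed, while Hba-a2 turned to 3.83 (0.233). Hba-a1, Hbb-bs and Alas2 each passed in only 1 of 6 fits with a library left out. Embryo 20 was singled out after its values were seen. Over the left-out libraries the adjusted p from edgeR lay between 0.0312 and 0.962 for Hba-a1. It lay between 0.0308 and 0.955 for Hbb-bs and between 0.0336 and 0.638 for Alas2. The macrophage list had a median of 0.97 with 8 of 8 positive, beside -0.01 for all genes tested, and its part in the values was not tested.

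**Figure D5:**
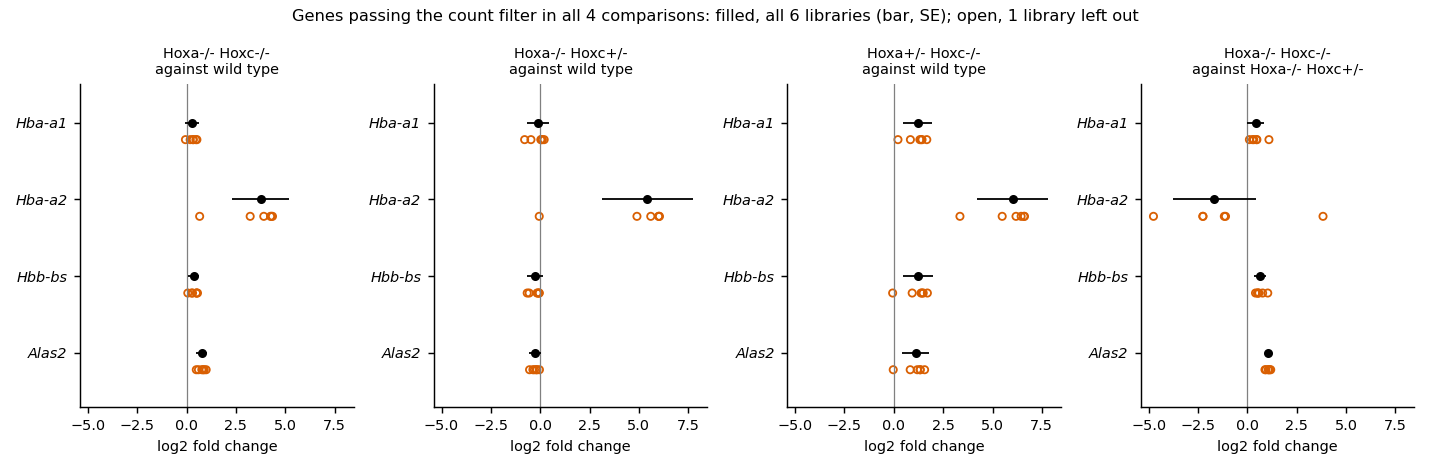
Log2 fold change of the 4 genes that passed the count filter in each of 4 comparisons, with filled points and bars for the estimate from 6 libraries and its SE, and open circles for the estimates with 1 library left out. Alas2 lies at 0.76 and 1.05 in the comparisons of Hoxa-/- Hoxc-/-, and Hba-a2 moves from 5.43 to -0.05 when embryo 20 is left out of Hoxa-/- Hoxc+/- against wild type.

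The first 3 of these comparisons share the wild type libraries and the 4th shares libraries with both of the first 2, so their values stand side by side and are not independent of each other. The study drew a list of genes from these same libraries that holds Hba-a2, and that list is therefore no separate evidence of its direction.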

How the data were processed

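The authors sequenced paired reads of 75 bases, aligned them to mm10 (the build in the submitters' notes), kept only those with a single position and worked in Strand NGS. The aligner's version is not given in the sources used here. They deposited expected counts per gene, of which 41.0% are not whole, and normalized log2 values with a median of 0 over the libraries for each gene. For the 6 libraries of each comparison, the counts, rounded to whole numbers, went into edgeR 4.0.16 under R 4.3.3 (TMM, filterByExpr with a minimum count of 10 and a minimum total of 15, quasi-likelihood F). CPM were taken from unrounded counts and total counts. SE is the log2 fold change divided by the root of F. Adjusted p-values (Benjamini-Hochberg) cover all genes tested. On simulated data edgeR and limma stayed under the limit set for false calls, while DESeq2 exceeded it for Hoxa-/- Hoxc-/- against Hoxa-/- Hoxc+/-. The simulated counts had the same setting for the spread between replicates in every gene and no library that stands apart. They therefore do not show how many false calls each tool makes in the real data. The limit was then applied to edgeR alone, and DESeq2 serves only as an alternative.

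Members, gene lists and the rule for naming genes were chosen with earlier results of these data known. Named are the members, list genes past the threshold (at most 6 per list) or of highest level, targeted genes, Xist and Ddx3y, and the genes most or least like Alas2 and the adult globins in log2 CPM (prior count 2). Of 161 list genes, 156 matched. The adult mean was planned over 4 globins and holds 3, as Hbb-bt was not analysed. For the 92 symbols on more than 1 row, the one with most reads was used. Alternatives used DESeq2 1.42.0 and limma 3.58.1 on the deposited log2 values. The correlations between members, the likeness to Hbb-bs, the motifs and the read windows were chosen after the data were seen. Other steps used Python 3.11.15, scipy 1.17.1 and matplotlib 3.10.9.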

Additional observations from a re-analysis of the deposited data

How the results depend on the processing

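Each group held 3 libraries, and several globin values rested on 1 of them. Of 254 values of the members under alternative settings, 235 kept the direction and the side of the threshold, 7 passed the threshold in addition and 12 turned in direction. The 235 include 8 settings and 6 left-out libraries for Hbb-y in Hoxa+/- Hoxc-/- against wild type. Those say nothing of stability, because Hbb-y passed the filter through the group where it was high. The cause was not tested. Embryonic genes were limited by depth. Each of the 7 members had 1 entry, so summing the entries of a symbol could not change them. The sum of Hbb-bs and Hbb-bt and their ratio were not run, as Hbb-bt was not analysed. No paired analysis was possible because the groups compared share no replicate numbers.

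Counts of genes past the threshold depended on settings. For Hoxa-/- Hoxc-/- against wild type (2171) they were 3380 by DESeq2, 1190 with all 12 libraries in 1 fit, 690 with the 9 libraries of run1008, 994 with Xist as a covariate and 1215 by limma, and 535 to 3386 with 1 library left out. For Hoxa-/- Hoxc+/- against wild type (0) they were 22 by DESeq2, 2 with all 12 libraries and 1 by limma, and 0 to 8 with 1 left out. For Hoxa+/- Hoxc-/- against wild type (376) they were 1318 by DESeq2, 149 with all 12 libraries, 130 with Xist and 158 by limma, and 60 to 549 with 1 left out. For Hoxa-/- Hoxc-/- against Hoxa-/- Hoxc+/- (0) they were 554 by DESeq2, 1 with all genes of at least 1 count, 540 with all 12 libraries, 181 with run1008, 641 with Xist and 1 by limma, and 0 to 687 with 1 left out.

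Log2 fold changes that passed in addition by DESeq2 were those of Alas2 in both comparisons of Hoxa-/- Hoxc-/- (0.77 and 1.04) and of Hba-a2 in Hoxa+/- Hoxc-/- against wild type (6.04). In Hoxa-/- Hoxc+/- against wild type, Xist as a covariate turned Hba-a1 to 0.17 and Hbb-bs to 0.13, and summing Hba-a1 with Hba-a2 gave 0.34. With 1 library left out, Hba-a1 ranged from -0.06 to 0.52 in Hoxa-/- Hoxc-/- against wild type, from -0.79 to 0.20 in Hoxa-/- Hoxc+/- against wild type and from 0.10 to 1.09 in Hoxa-/- Hoxc-/- against Hoxa-/- Hoxc+/-. In the same order of the last 2 comparisons, Hba-a2 ranged from -0.05 to 6.04 and from -4.76 to 3.83. In Hoxa+/- Hoxc-/- against wild type, Hba-a2 ranged from 3.35 to 6.62, Hbb-bs from -0.06 to 1.70 and Alas2 from -0.03 to 1.56. In Hoxa-/- Hoxc-/- against Hoxa-/- Hoxc+/-, Hbb-bs ranged from 0.41 to 1.03 and Alas2 from 0.89 to 1.18.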
